A study of Bos taurus with 94 samples.

Results

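The forestomach of cattle was compared with the esophagus and the tongue surface, which are lined by the same kind of tissue, a stratified squamous epithelium. The libraries were chosen by their tissue label: 4 of the forestomach (Omasum, RumenPapillae, Rumen and Reticulum) and 3 of the upper tract (Tongue_superficial, Esophagus and lower_tongue), together 7 of the 94 libraries of the series. All 7 carry the labels Hereford and adult, none carries a treatment, and each is the only library of its label. The series is a bovine tissue atlas of RNA sequencing made to help interpret genetic associations with cattle traits. The labels name no animal and no tissue layer. The replicates of a group are neighbouring organs or parts of the same organ (Rumen with RumenPapillae, and Tongue_superficial with lower_tongue). The tests treated them as independent, and p-values measure the spread between these libraries. Below, each of the 4 forestomach libraries is called a chamber, also RumenPapillae. It is not known whether the whole wall or the lining was taken, and in such bulk tissue fewer cells of a type and less RNA per cell cannot be told apart.

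The forestomach is the fermentation chamber system of ruminants. Microbes in the rumen and reticulum ferment plant fibre to short-chain fatty acids, and the lining takes up these acids together with electrolytes, water and ammonia and turns part of the butyrate into ketone bodies. Rumen papillae are leaf-like projections that enlarge this surface, and the omasum holds broad folds that absorb water and salts. The lining of the tongue and of the esophagus mainly withstands abrasion by feed. The files identify genes by Ensembl identifier only, and no symbol was found for any of the 24616, so genes are described by where else in the animal they were expressed.

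Expression was given by the authors as FPKM, fragments counted per length of transcript and per depth of sequencing, and the read depth behind the values is unknown. FPKM summed to 795861 ± 15600 in the forestomach and 738546 ± 45800 in the esophagus and tongue (SD, n = 4 and 3). RumenPapillae had the fewest genes at an FPKM of 1 or more (10014), and the other forestomach libraries had 11508 to 12206, against 11358 to 12109 in the esophagus and tongue. The top 10 genes by level took 20.4 ± 2.27% of the FPKM in the forestomach and 26.0 ± 1.27% in the esophagus and tongue. In the FPKM total and in the share of the top 10 genes the groups did not overlap. The totals of Reticulum (772622) and Tongue_superficial (772563) were almost equal, however. For both measures the two-sided exact permutation p of 0.0571 (0.114 adjusted over 4 measures) is the smallest that 4 against 3 libraries can give. For genes reaching an FPKM of 1 the two-sided exact permutation p was 0.857.

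As a check of the labels, the 7 libraries were placed among all 94 by Spearman correlation across 18031 genes, which are not independent replicates. Each forestomach library was closest to another one (Spearman's rho 0.917 to 0.971), and both tongue libraries were closest to each other (0.971). The esophagus was closest to the reticulum (0.930), with Tongue_superficial next (0.926). Across the 12239 genes tested in the 7 libraries alone, it was closest to Tongue_superficial (0.906) and less close to the reticulum (0.875). Within the forestomach these correlations ran from 0.842 (Omasum and RumenPapillae) to 0.963 (Rumen and Reticulum), and between the groups from 0.765 to 0.875.

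The forestomach differed from the esophagus and tongue in 1427 of 12239 genes tested, 11.7%. Of these, 830 (6.78%) were higher and 597 (4.88%) were lower in the forestomach, by limma on log2(FPKM + 1). A call needed a Benjamini-Hochberg adjusted p below 0.05 and a difference of 1 or more on the log2 scale, and without the adjustment 3521 genes had a p under 0.05. The genes that were lower differed more: their median log2 difference was -1.84, against 1.45 for those that were higher. Of the lower genes 259 differed at least 4-fold and 27 at least 64-fold, and of the higher genes 226 and 8. The 830 higher genes held 35.4 to 43.7% of all FPKM in the forestomach libraries and 14.2 to 16.8% in the esophagus and tongue. The 597 lower genes held 4.12 to 5.52% in the forestomach and 30.1 to 32% in the esophagus and tongue.

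Without regard to size, every forestomach library lay above every esophagus and tongue library in 2098 genes (17.1% of those tested), and below all of them in 1376 (11.2%). The number of called genes depended on the tongue libraries. It was 942 without Tongue_superficial (587 higher, 4.8% of those tested, and 355 lower, 2.9%) and 907 without lower_tongue (509 higher, 4.16%, and 398 lower, 3.25%). Against the esophagus alone it was 267 (139 higher, 128 lower), a fit in which that single library is assumed to vary like the forestomach libraries. The excess of higher genes was not kept under other scalings: 642 genes were higher and 657 lower with FPKM rescaled to equal totals, and 718 were higher and 717 lower after quantile normalization.

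**Figure D1:**
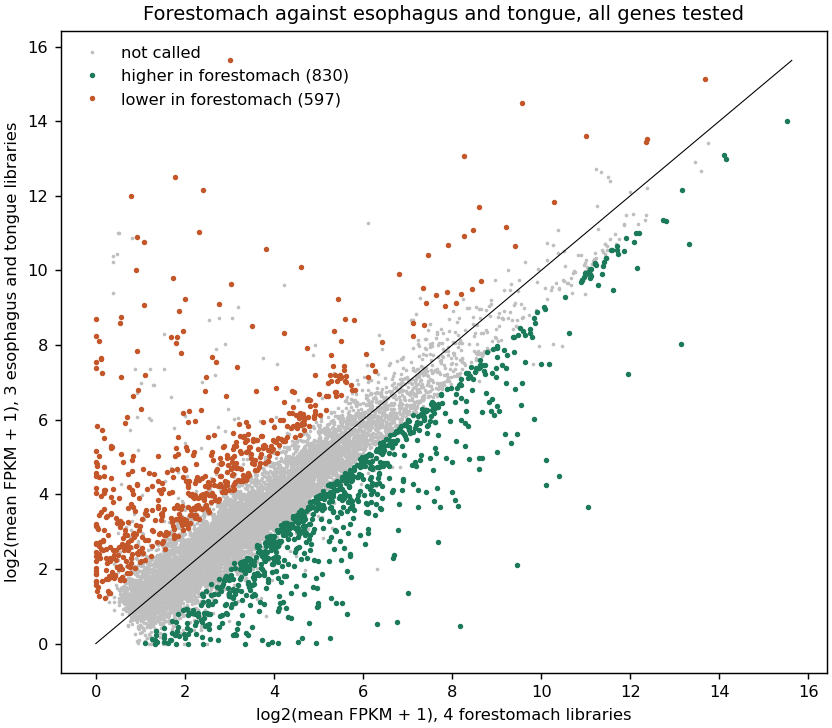
Mean level of each of the 12239 genes tested as log2(mean FPKM + 1), in the 4 forestomach libraries (horizontal axis) and the 3 esophagus and tongue libraries (vertical axis); the line marks equal levels. Green points are the 830 genes called higher and orange points the 597 called lower in the forestomach, and the orange points reach further from the line.

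The gene with the largest increase, ENSBTAG00000003898, had 1192 FPKM in Omasum, 2753 in RumenPapillae, 2276 in Rumen and 2242 in Reticulum, against 0.342 in Tongue_superficial, 34.2 in Esophagus and 0.0624 in lower_tongue. It averaged 2116 ± 658 FPKM in the forestomach and 11.5 ± 19.6 FPKM in the esophagus and tongue (SD, n = 4 and 3). All forestomach libraries were high, and among the other 3 the esophagus stood above both tongue libraries. The log2 difference was 9.10 ± 1.08 (SE; limma adjusted p = 0.0011). Among the other 87 libraries 15 reached an FPKM of 1, and the highest were the liver (612), the abomasum (367), the library labelled KPH_fat (277) and the urethra (146). The ascending colon, caecum and descending colon followed with 87.8, 65.3 and 32.8 FPKM. The 4 forestomach libraries thus held the highest levels of this gene in the series, with liver next.

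ENSBTAG00000040393 had 1263 FPKM in Omasum, 1291 in RumenPapillae, 1315 in Rumen and 1562 in Reticulum, against 0.209 in Tongue_superficial, 64.7 in Esophagus and a listed 0 in lower_tongue. Its levels in the forestomach lay close together, at 1358 ± 138 FPKM, against 21.6 ± 37.3 FPKM in the esophagus and tongue (SD, n = 4 and 3). The log2 difference was 8.30 ± 1.27 (SE; limma adjusted p = 0.0033). Outside the forestomach the esophagus had the highest level of all libraries. The abomasum came next with 8.58 FPKM, and 62 of the other 87 libraries listed the gene at 0. Without the esophagus the log2 differences of both genes were larger, 10.73 for ENSBTAG00000003898 and 10.27 for ENSBTAG00000040393, and against the esophagus alone they were 5.85 and 4.36.

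The gene with the largest decrease, ENSBTAG00000012034, had 25.8 FPKM in Omasum, 1.45 in RumenPapillae, 0.143 in Rumen and 0.882 in Reticulum, against 35953 in Tongue_superficial, 71920 in Esophagus and 44132 in lower_tongue. Its log2 difference was -13.78 ± 0.94 (SE; limma adjusted p = 9.55e-05). It was the first or second most abundant gene in each of the esophagus and tongue libraries, where it took 4.65 to 10.5% of all FPKM. In the forestomach the omasum stood above the other 3 libraries. Its level was not particular to it, since the descending colon (35.9 FPKM) and Semitendinosus_eye, a limb muscle (27.9 FPKM), were higher. Elsewhere the gene was high in the library labelled Ant_Eye (7877 FPKM), in the nasal mucosa (2682) and in the library labelled Cancer_eye (1256). The mesenteric lymph node came next with 777 FPKM, far above the following library, the bulbourethral gland (59.0).

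ENSBTAG00000032997 had 2.53 FPKM in Omasum and 0.385 in RumenPapillae and was listed at 0 in Rumen and Reticulum, against 3605 in Tongue_superficial, 4730 in Esophagus and 3900 in lower_tongue. Its log2 difference was -11.41 ± 0.42 (SE; limma adjusted p = 5.82e-06). The 3 libraries of the esophagus and tongue were close to each other, at 4079 ± 583 FPKM (SD, n = 3), and no forestomach library came near them. Among the other 87 libraries Cancer_eye had the highest level (519 FPKM), followed by the mesenteric lymph node (55.9).

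**Figure D2:**
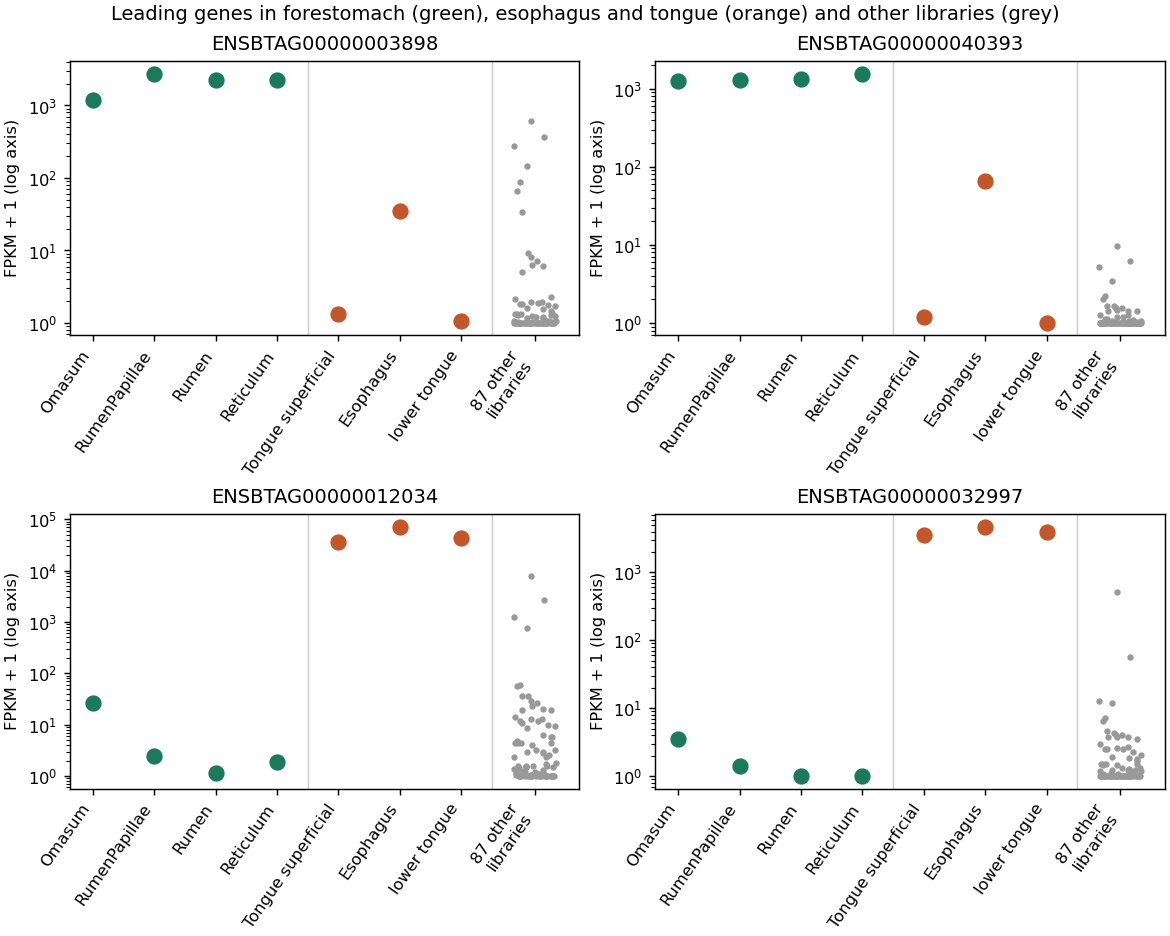
FPKM + 1, on a log axis, of the 2 genes with the largest increase (upper panels) and the 2 with the largest decrease (lower panels) in the forestomach. Each green or orange point is a library of the forestomach or of the esophagus and tongue, and grey points are the other 87 libraries; in the upper panels the esophagus (34.2 and 64.7 FPKM) lies above both tongue libraries.

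The 12 genes with the largest increase showed the same order within the esophagus and tongue. In 12 of 12 the esophagus was above both tongue libraries. It was also the highest of its group in 67.8% of 824 higher genes and in 59% of 12226 genes tested. Genes with the same value in all libraries of the group were left out of these shares. Their median level was 743 to 986 FPKM in the forestomach libraries, against 0.190 in Tongue_superficial, 20.3 in Esophagus and 0.153 in lower_tongue. Summed, they held 2.23 to 2.71% of the FPKM in the forestomach, against 0.206% in the esophagus and 0.00418 to 0.00477% in the tongue libraries. Their log2 differences ran from 4.97 to 9.10 (limma adjusted p from 2.08e-05 to 0.00573). Between 6 and 37 of the other 87 libraries reached an FPKM of 1 for a gene of this group.

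The 12 genes with the largest decrease were at or near 0 in the forestomach, where their median was 3.41 FPKM in Omasum and at most 0.422 FPKM in the other chambers, against 2216 in Tongue_superficial, 654 in Esophagus and 1763 in lower_tongue. They held 0.000876 to 0.00839% of the FPKM in the forestomach, against 8.35 to 12.3% in the esophagus and tongue. In the omasum 11 of the 12 reached an FPKM of 1, and in the other chambers 3 to 5 did. Cancer_eye was the highest other library for 8 of the 12. Their log2 differences ran from -13.78 to -8.05 (limma adjusted p from 6.72e-07 to 0.00108).

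Genes that were on in one group and off in the other were few. Only 3 genes had at least 10 FPKM in every forestomach library and under 1 FPKM in every esophagus and tongue library, and 20 genes had the opposite pattern. The 3 genes on in the forestomach reached an FPKM of 1 in 10 to 15 of the other 87 libraries. The 20 genes on in the esophagus and tongue did so in 1 to 74, with a median of 8, and 13 of them were at 10 FPKM or more in Cancer_eye, 8 in Ant_Eye and 7 in the nasal mucosa.

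Each library was then left out of the fit and placed on the genes called without it. Its own values had no part in the calls, but they did in the filter on low values, which was kept at the same 12239 genes. Its position was expressed as a percentage of the log2 gap, with 0% at the mean of the other group and 100% at the mean of its own. The rumen had a median of 99.5% on 630 genes higher in the forestomach (5.15% of those tested) and of 98.1% on 427 lower genes (3.49%). The reticulum had medians of 97.7% on 650 higher genes (5.31%) and 92.1% on 497 lower genes (4.06%), so both lay at the mean of the other chambers or close to it. By its medians RumenPapillae lay beyond its group, at 103% on the 908 higher genes (7.42%) and 114% on the 578 lower genes (4.72%). It was not further out in every gene. It lay above every esophagus and tongue library in 803 of the 908 (88.4%), and 153 (16.9%) lay nearer to the esophagus and tongue mean. Of the 578 lower genes 572 lay below all of those libraries. By its medians the omasum lay nearest to the esophagus and tongue, at 78.9% on 898 higher genes (7.34%) and 82.5% on 589 lower genes (4.81%). It still lay above every esophagus and tongue library in 827 of the 898 (92.1%) and below all of them in 557 of the 589.

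The esophagus was the furthest from its own group, which without it held the tongue libraries alone. On the 997 genes higher in the forestomach than in the tongue libraries (8.15% of those tested) its median was 67.1%, and it lay nearer to the forestomach mean in 298 of them (29.9%). On the 643 genes lower in the forestomach (5.25%) its median was 76.8%, and 195 (30.3%) lay nearer to the forestomach. It was below every forestomach library in 891 of the 997 genes and above all of them in 519 of the 643. Tongue_superficial had medians of 95.7 and 104%, and lower_tongue of 119 and 95.2%, on genes called with the esophagus in the fit. These positions are not like for like. Each tongue library kept the other one in its group, while the esophagus had no second library of its organ. A lower position of the esophagus is therefore partly built into the grouping. The esophagus is a single library, so its distance from the tongue libraries has no replicate check.

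**Figure D3:**
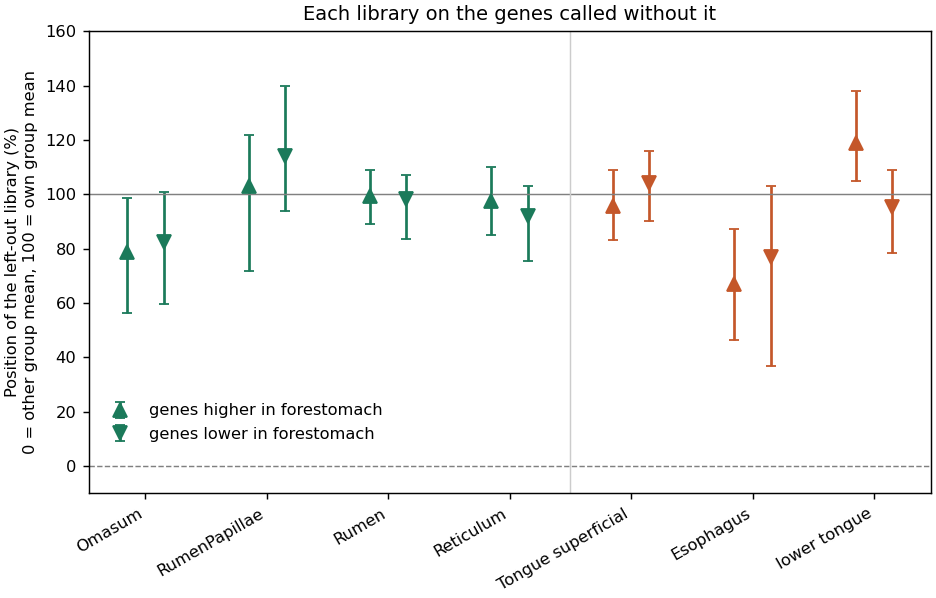
Position of each library on the genes called without it, as a percentage of the log2 gap between the groups (0% is the other group's mean, 100% its own); triangles pointing up are genes higher in the forestomach, triangles pointing down genes lower, and bars span the middle 50% of genes. Green is the forestomach and orange the esophagus and tongue; the omasum (78.9 and 82.5%) and the esophagus (67.1 and 76.8%) sit lowest.

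Single libraries were also set against each other by the genes that differed at least 4-fold, among those with 10 FPKM or more in at least 1 library of the pair. These counts have no replicate check. Rumen and Reticulum differed in 23 of 6134 genes (0.375%), Omasum and Rumen in 81 (1.3%) and Omasum and Reticulum in 108 (1.69%). RumenPapillae stood further off, with 186 genes against Rumen (3.18%), 246 against Reticulum (4.01%) and 457 against Omasum (7.42%). Nearly all of these were lower in the papillae: 171 of the 186, 234 of the 246 and 405 of the 457. Both tongue libraries differed in 12 of 5546 genes (0.216%), while the esophagus differed from Tongue_superficial in 354 (5.63%) and from lower_tongue in 353 (5.76%).

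Across the groups the esophagus was again the nearest of its group to every chamber. Against it 369 genes differed at least 4-fold in Reticulum (5.62%), 420 in Rumen (6.54%), 448 in Omasum (6.78%) and 749 in RumenPapillae (11.7%). Against Tongue_superficial 651 differed in Reticulum (9.87%), 666 in Omasum (10.3%), 679 in Rumen (10.7%) and 912 in RumenPapillae (14.7%). Against lower_tongue 732 differed in Reticulum (11.4%), 730 in Rumen (11.8%), 743 in Omasum (11.9%) and 851 in RumenPapillae (14.6%). The reticulum and the esophagus thus differed in about as many genes as the esophagus and either tongue library.

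Within the groups the order of the libraries was compared between the called genes and all genes. Genes with the same value in all libraries of a group were left out. A tie was given to the library that comes first in the opening list of libraries. Among the genes called higher in the forestomach, RumenPapillae had the highest chamber level in 45.4%, against 17.3% of all genes tested, and the omasum the lowest in 48.7%, against 24.3%. Among the lower genes the esophagus had the lowest level of its group in 49.1%, against 20.2% of all genes tested. Other positions were closer to those of all genes: among the higher genes lower_tongue was the lowest of its group in 69.1%, against 61.4%, and among the lower genes RumenPapillae was the lowest chamber in 57.5%, against 52.3%. These shares describe the genes, since the values also entered the calls.

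Smooth muscle genes differed along with the chambers. A set of 11 genes typical of the uterine myometrium and the bladder summed to 5864 FPKM in Omasum, 2820 in Rumen, 808 in Reticulum and 31.3 in RumenPapillae. In the esophagus and tongue it summed to 199 in Tongue_superficial, 1328 in Esophagus and 236 in lower_tongue. In summed FPKM the papillae library was thus lowest and the omasum highest. Much of these sums came from 1 gene. Only 2 genes of the set made up 3577 FPKM in Omasum and 1673 in Rumen, with 1 of the 2 at 10 FPKM or more in each. By number the chambers other than RumenPapillae were closer. Of the 11 genes, 6 reached 10 FPKM in Omasum, 5 in Rumen, 5 in Reticulum and 0 in RumenPapillae. In Esophagus 5 did, in lower_tongue 2 and in Tongue_superficial 1. None of the 9 genes of the set that could be tested was called between the groups, where 11.7% of all genes were, so a count of 0 is near that share. Of the 171 genes higher in Rumen than in RumenPapillae, 140 reached 10 FPKM in the myometrium (81.9%), beside 80.9% of all genes compared in that pair. Of the 15 genes higher in the papillae, 1 did. The part of muscle in the differences among the chambers was not tested.

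Both tongue libraries also carried striated muscle. Of 123 genes typical of limb muscle, 10 in Omasum, 1 in RumenPapillae, 5 in Rumen and 8 in Reticulum reached 10 FPKM, against 81 in Tongue_superficial, 3 in Esophagus and 50 in lower_tongue. Their summed FPKM was 108 to 698 in the forestomach, against 15819 in Tongue_superficial, 251 in Esophagus and 6047 in lower_tongue. Of the 62 tested, none was called higher in the forestomach and 13 were called lower, beside 6.78% and 4.88% of all genes tested. The median of limb muscle was above the lowest esophagus and tongue library in 66 of the 597 lower genes, and 531 lower genes remained without them. By the same rule 482 of the 830 higher genes and 7537 of all 12239 genes tested remained. The rule uses the group in which the lower genes are high, so it tends to keep them. The part of striated muscle in the lower genes was not tested. Few genes of lymphoid organs reached this level in any of the 7 libraries. Of 102 genes typical of lymph nodes and spleen, 1 or 2 reached 10 FPKM in a forestomach library and 1 to 4 in an esophagus or tongue library. At 1 FPKM or more, 20 (RumenPapillae) to 44 (Reticulum) were found in the forestomach, against 30 (Esophagus) to 57 (Tongue_superficial).

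Which other tissues share the genes was asked with sets of genes typical of a tissue, built from the other 87 libraries alone. A gene entered a set when the lowest library of that tissue had at least 20 FPKM and at least 10 times the 75th percentile of the remaining libraries (3 times for smooth muscle). Such a set says where a gene is otherwise strong, and gives it no function. The sets of the liver, abomasum, salivary gland, nasal mucosa and Cancer_eye rest on 1 library each, and sets can share genes.

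The forestomach carried more genes typical of liver and kidney at 10 FPKM or more than the esophagus and tongue did. Of 389 liver genes, 42 to 49 reached 10 FPKM in the forestomach libraries, against 18 to 29 in the esophagus and tongue. The groups did not overlap. Of the 115 liver genes tested, 34 were called higher and 9 lower, beside 6.78% and 4.88% of all genes tested, and their median log2 difference was 0.44, against 0.08 over all genes. Of 262 kidney genes, 33 to 37 reached 10 FPKM in the forestomach, against 23 to 30 in the esophagus and tongue. Their summed FPKM was 2660 to 5576 in the forestomach and 1118 to 1532 in the esophagus and tongue. Of the 90 kidney genes tested, 25 were called higher and 10 lower, beside the same shares of all genes tested. At 1 FPKM or more the groups overlapped in both sets: 95 to 111 liver genes in the forestomach and 85 to 107 in the esophagus and tongue, and 69 to 82 kidney genes in the forestomach and 73 to 85 in the esophagus and tongue. Testing required an FPKM of 1 in 3 of the 7 libraries, so genes that were high in only one group were bound to differ, and these counts are a description. The same limit holds for the called counts of every other tissue set.

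A few genes of the large intestine stood at much higher levels in the forestomach. Of 97 such genes, 17 to 19 reached 10 FPKM in the forestomach, against 11 to 16 in the esophagus and tongue. Their summed FPKM was 15590 in Reticulum, 17406 in Rumen, 18978 in RumenPapillae and 25591 in Omasum, against 1593 in lower_tongue, 2013 in Tongue_superficial and 2708 in Esophagus. In these sums the lowest forestomach library lay far above the highest of the other 3. At 1 FPKM or more the groups overlapped in number, with 25 to 32 genes in the forestomach and 25 to 36 in the esophagus and tongue. Of the 36 tested, 13 were called higher and 5 lower, beside 6.78% and 4.88% of all genes tested. Genes of the abomasum, the glandular stomach that follows the omasum, also summed higher in the forestomach, to 6415 to 9046 FPKM, against 2189 to 3706 FPKM in the esophagus and tongue. Their number did not separate the groups: 28 to 30 of 169 reached 10 FPKM in the forestomach, against 22 to 34 in the esophagus and tongue. Of the 73 tested, 21 were called higher and 15 lower, beside the same shares of all genes tested, with a median log2 difference of -0.08.

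Genes of Cancer_eye showed the opposite. Of 258 genes typical of that library, 112 to 120 reached 10 FPKM in the forestomach libraries, against 218 in Tongue_superficial, 163 in Esophagus and 211 in lower_tongue. The esophagus again lay between the tongue and the forestomach. Of the 206 tested, 15 were called higher in the forestomach and 107 lower, with a median log2 difference of -1.58. These counts, and those of nasal mucosa and salivary gland below, stand beside 6.78% and 4.88% of all genes tested. Of 127 genes of the nasal mucosa, 41 to 47 reached 10 FPKM in the forestomach, against 55 to 59 in the esophagus and tongue, and 10 of the 81 tested were called higher and 35 lower. Of 122 genes of the salivary gland, 20 to 25 reached 10 FPKM in the forestomach, against 25 to 30 in the esophagus and tongue, and 12 of the 57 tested were called higher and 18 lower. Their summed FPKM went the other way, with 16682 to 21525 in the forestomach, against 5375 to 15321 in the esophagus and tongue.

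Of 92 genes of the small intestine, 9 or 10 reached 10 FPKM in the forestomach, against 6 to 8 in the esophagus and tongue. At 1 FPKM or more the groups overlapped, with 16 to 20 in the forestomach and 16 to 27 in the esophagus and tongue. Of the 21 tested, 6 were called higher and 2 lower, beside 6.78% and 4.88% of all genes tested. Their median log2 difference was 0.49, close to those of liver (0.44) and kidney (0.42). The sets of lung, thyroid, brain, fat, and vagina and cervix overlapped between the groups in this number. Of the 134 lung genes 18 to 27 reached 10 FPKM in the forestomach and 16 to 26 in the esophagus and tongue, but their summed FPKM was 12819 to 22698 in the forestomach and 44586 to 68983 in the esophagus and tongue. Of the 76 thyroid genes 6 to 11 reached 10 FPKM in the forestomach and 7 to 9 in the esophagus and tongue. Of the 71 brain genes at most 3 did in any of the 7 libraries.

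**Figure D4:**
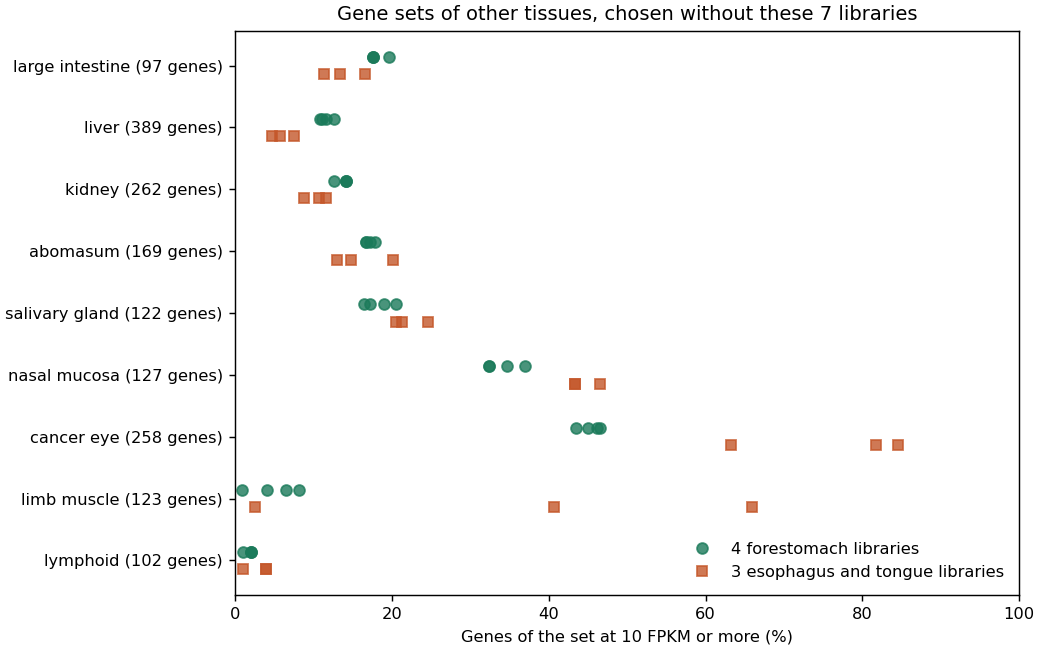
Share of the genes typical of 9 other tissues that reached 10 FPKM in each library (horizontal axis, %). Green circles are the 4 forestomach libraries and orange squares the 3 esophagus and tongue libraries; limb muscle genes lie at 0.813 to 8.13% in the forestomach and at 65.9% in Tongue_superficial, 2.44% in Esophagus and 40.7% in lower_tongue.

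Each of the other 87 libraries was also read against the called genes. A library was counted as reaching the range of a gene when it was at or above the lowest library of the group in which the gene was higher. Kidney medulla reached the forestomach range in 43.9% of the 830 higher genes and kidney cortex in 42.4%. The ipsilateral isthmus of the oviduct followed with 40.6% and the jejunum with 37.6%, and the median of all 87 libraries was 24.8%. The contralateral isthmus was nearer to that median, with 28.9%. Cancer_eye was the second lowest for these genes, with 9.52%. Over all genes tested the median library reached the forestomach range in 75.1%. Kidney medulla did in 79.7%, kidney cortex in 79.3%, the ipsilateral isthmus in 63.6% and the jejunum in 75.9%. The contralateral isthmus did in 79.4% and Cancer_eye in 79.2%. For the 597 lower genes Cancer_eye was at the top: it reached the esophagus and tongue range in 53.8%. The bulbourethral gland (33.3%) and Ant_Eye (31.3%) followed, and the median of all 87 libraries was 20.4%. Over all genes tested the median library reached the esophagus and tongue range in 73.3%. Cancer_eye did in 83.5%, the bulbourethral gland in 71% and Ant_Eye in 67.6%. The library labelled bulbourethral gland was itself closest to Cancer_eye (Spearman's rho 0.917).

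The highest of the other libraries was recorded for each gene. Kidney cortex led 67 of the 830 higher genes (8.07%, beside 1.92% of all genes tested) and liver led 51 (6.14%, beside 1.54%). The ipsilateral isthmus led 92 (11.1%), beside 5.05% of all genes tested. The contralateral isthmus, a library of the same tissue, led only 3 (0.361%, beside 0.188%). Cancer_eye led 110 of the 597 lower genes (18.4%), beside 1.94% of all genes tested.

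**Figure D5:**
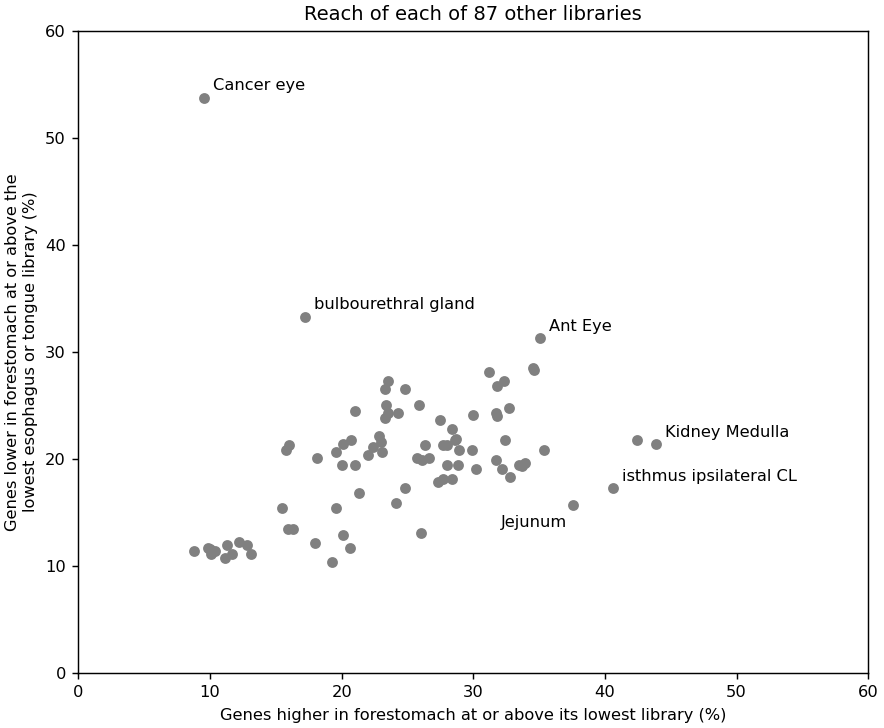
Each point is one of the 87 other libraries: the share of the 830 higher genes at or above the lowest forestomach library (horizontal axis, %) and the share of the 597 lower genes at or above the lowest esophagus or tongue library (vertical axis, %). Cancer_eye (9.52 and 53.8%) lies at the upper left and Kidney_Medulla (43.9 and 21.4%) at the right.

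Against the rest of the series, 70 genes had at least 1 FPKM in all 4 forestomach libraries and lay there above all 90 other libraries, with a median level of 159 FPKM. In 78 genes the 3 esophagus and tongue libraries lay above all 91 others, with a median of 193 FPKM. This number was 120 when Cancer_eye was set aside. In 13 genes all 7 libraries lay above the other 87, and in 50 when Cancer_eye was set aside. These 50 genes were chosen without regard to the difference between the groups: 5 were called higher and 9 lower in the forestomach, beside 6.78% and 4.88% of all genes tested, and 36 were not called, which does not show that they were equal. Their median level was 141 FPKM in the forestomach and 135 FPKM in the esophagus and tongue, and their median log2 difference was -0.43.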

How the data were processed

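RNA sequencing of 94 bovine tissue libraries was used, and the deposited values are FPKM per Ensembl gene, per the file name. HISAT2, StringTie and the build UMD3.1 are named in the submitters' processing notes; tool versions, annotation, filters and depth are not stated there. FPKM is relative, so a few very abundant genes lower the others, and an exact 0 can be a failed estimate. Genes with at least 1 FPKM in at least 3 of the 7 libraries were tested on log2(FPKM + 1), which understates changes of low genes, with limma 3.58.1 (R 4.3.3; moderated by empirical Bayes with a mean-variance trend; two-sided; Benjamini-Hochberg over all 12239 genes), a step tested on simulated data. Other steps used Python 3.11.15, numpy 2.4.6 and pandas 2.3.3. Genes named are the 2 with the largest difference in each direction among called genes whose groups do not overlap; the 12 largest are summarised. Libraries, rules and lists were chosen with earlier results of these data known. Lists and cell type markers given by symbol were not used, since 0 of 24616 identifiers matched a symbol in the gene table of assembly ARS-UCD2.0; the tissue sets and the leave-one-out positions replaced them. Alternatives were another pseudocount (0.1), no filter, other scalings and variance models, and each library left out.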

Additional observations from a re-analysis of the deposited data

Results flagged for a closer look

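Among 12 groups of 4 forestomach values, 4 had a library far from the other 3, where chance gives about 1 in 20. The reticulum had the lowest FPKM total, 772622, below the other chambers. The omasum had the highest level of ENSBTAG00000012034 (25.8 FPKM) and of ENSBTAG00000032997 (2.53 FPKM), and the highest share of FPKM in the 12 genes with the largest decrease (0.00839%). These last 3 values share genes and are not independent. Some libraries outside the comparison had more of both genes than the omasum, such as the descending colon with 35.9 and 3.56 FPKM.

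ENSBTAG00000003898, the gene with the largest increase in the forestomach, was also above the highest esophagus and tongue library (34.2 FPKM) in 6 libraries outside the comparison. These were the liver (611.6 FPKM), the abomasum (367.3 FPKM), the library labelled KPH_fat (276.7 FPKM), the urethra (146.4 FPKM), the ascending colon (87.8 FPKM) and the caecum (65.3 FPKM).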

How the results depend on the processing

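No paired analysis was possible because the labels give no replicate numbers shared by the groups. Of the 1427 called genes, none changed sign under any alternative in which it was tested. Leaving out each library in turn gave 907 to 1640 genes, 509 to 997 higher and 355 to 643 lower in the forestomach, the lowest counts without a tongue library. Without both tongue libraries, an alternative chosen after seeing the data, 267 genes were called, 139 higher and 128 lower. Array weights, whose estimation stopped before convergence, gave 926 lower genes. Without genes that limb muscle carries above the lowest esophagus and tongue library, 7537 genes were tested and 503 were higher. The difference in genes at an FPKM of 1 or more was -352, from -607.7 to 123 when each library was left out, and turned to 123 without RumenPapillae. It was -711.4 at an FPKM of 0.1 and -10.8 at an FPKM of 5. The other counts of called genes stayed within 1.5 times of those reported, and the 4 named genes kept their direction and call wherever they were tested. Alternatives for the gene lists were not run, for lack of symbols. Depth is unknown, so no counting error can be given for low values.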
